A study of Mus musculus with 6 samples.

Results

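The genes described here are 7 protein arginine methyltransferases, Prmt1, Prmt2, Prmt3, Prmt5, Prmt6, Prmt7 and Carm1, and 2 cofactors of PRMT5, Wdr77 and Clns1a. They were chosen by gene symbol and make up 9 of the 24391 annotated genes. Their messenger RNA was measured by RNA sequencing in mRPMaxKO, a mouse line grown from an RPMax-/- lung tumour on a mixed 129/SvJ; C57BL/6 background, where RP stands for loss of Rb1 and p53. By that label the tumour behind both groups lacked Max as well, and the cells were a puromycin-selected polyclonal population that carried a doxycycline-inducible lentiviral vector. The control group (3 libraries) and the MAX restored group (3 libraries) share 1 protocol text that gives 4 days of doxycycline. Whether the control cells carried an empty vector or received doxycycline is not stated in the labels. Separate cultures behind the replicates are not mentioned either, so the p-values cover only the spread between libraries, which may be technical. The line is a single tumour's derivative, kept below 20 passages.

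Protein arginine methyltransferases move methyl groups from S-adenosylmethionine onto arginines of histones, RNA-binding proteins and signalling proteins. Type I enzymes (PRMT1, PRMT2, PRMT3, CARM1, PRMT6) make asymmetric dimethylarginine, the type II enzyme PRMT5 makes symmetric dimethylarginine, and the type III enzyme PRMT7 makes monomethylarginine. PRMT5 works in a complex with WDR77, also called MEP50, and CLNS1A, also called pICln, brings it the Sm proteins of the spliceosome. MYC proteins, which bind the E-box CACGTG as dimers with MAX, have been described as activators of the PRMT5 and Sm protein genes in lymphoma.

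Because MAX dimers read CACGTG, the promoter windows of these genes are shown with that motif in capitals. RefSeq windows on GRCm38.p6, each from 250 bases before to 50 bases after a start site, were found for 8 of the 9 genes, and Carm1 had no entry. The motif, a palindrome that reads alike on both strands, occurred once each in the windows of Prmt1, Prmt3, Clns1a and Wdr77 and was not found in those of Prmt2, Prmt5, Prmt6 and Prmt7. Over all 32851 RefSeq windows of this length 7.15% held it, and of the 27025 gene symbols with a window 8.09% had it in any window. The motif begins 181 bases before the start site in Prmt1, 114 before it in Clns1a and 13 before it in Prmt3, and spans bases 10 to 15 of the transcript in Wdr77. The stretches below run 5′ to 3′ along the gene's strand and hold at most a short piece of annotated untranslated exon. They lie at chr7:44986569-44986670 (minus strand) for Prmt1, chr7:49778108-49778357 (plus) for Prmt3, chr7:97696407-97696656 (plus) for Clns1a and chr3:105959495-105959524 (plus) for Wdr77. The stretch of Prmt2, at chr10:76237866-76238115 (minus), is added because it was the only 1 of the 9 genes that rose.
Prmt1: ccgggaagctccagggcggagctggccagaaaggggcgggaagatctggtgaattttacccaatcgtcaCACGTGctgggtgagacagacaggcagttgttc
Prmt3: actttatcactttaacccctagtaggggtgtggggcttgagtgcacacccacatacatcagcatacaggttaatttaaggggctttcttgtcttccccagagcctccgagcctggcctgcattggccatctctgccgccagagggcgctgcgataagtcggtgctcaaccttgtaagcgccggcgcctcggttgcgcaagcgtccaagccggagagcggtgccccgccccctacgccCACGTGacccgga
Clns1a: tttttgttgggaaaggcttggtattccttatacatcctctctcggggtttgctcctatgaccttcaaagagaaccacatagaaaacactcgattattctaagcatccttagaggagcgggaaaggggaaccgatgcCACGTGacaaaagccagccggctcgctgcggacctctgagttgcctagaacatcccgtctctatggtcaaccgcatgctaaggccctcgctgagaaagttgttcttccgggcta
Wdr77: gcagaggtacacCACGTGtgcggtccctcc
Prmt2: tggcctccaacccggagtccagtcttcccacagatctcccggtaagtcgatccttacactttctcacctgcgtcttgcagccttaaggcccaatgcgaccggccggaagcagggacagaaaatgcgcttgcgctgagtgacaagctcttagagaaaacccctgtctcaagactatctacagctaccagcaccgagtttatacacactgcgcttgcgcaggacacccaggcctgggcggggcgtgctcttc
The 4 genes whose windows hold the motif were called lower with MAX restored, as were 32.3% of all tested genes. The call of Prmt1 was lost without control 2 (edgeR adjusted p = 0.0658) or MAX restored 3 (0.0639). Of the 4 whose windows do not, Prmt7 and Prmt5 were lower, Prmt2 was higher and Prmt6 did not pass the test. A match in these letters is a description and does not show binding.

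Each library held 10046899 to 11925909 counts, and the 9 genes had between 241 and 2498 reads per library. Max had 639, 691 and 620 reads in controls 1 to 3 and 15979, 14933 and 13369 in MAX restored libraries 1 to 3. Whether the control reads lie inside the deleted part of Max cannot be read from 1 count per gene. Control 1 stood apart from the other controls: its chi-square per degree of freedom over genes was 8.91 and 10.2 against them, while controls 2 and 3 gave 1.50 between them and the MAX restored pairs 1.24 to 1.46. The ribosomal RNA precursor Rn45s took 0.996% of its counts and between 0.109% and 0.187% elsewhere. Among the 9 genes, control 1 differed from the mean of the other controls by log2 -0.29 (Carm1) to 0.28 (Prmt3), and the fold change without it is given for each gene. Lung tumours of mice without Rb1 and p53 are neuroendocrine, and the 8 neuroendocrine markers, all above the count filter, summed to 8463 to 8815 CPM per library. The fibroblast and immune lists summed to at most 3.62 CPM in any library, with Lum, Cd3e and Adgre1 at 0. Pdgfrb, the only tested fibroblast gene, rose (log2 1.79, from 0.525 to 1.86 CPM), and the tested immune genes Cd68 and Lyz2 did not pass. The alveolar and club cell list summed to 48.1 to 50.4 CPM in the controls and 47.8 to 53.9 with MAX restored. Of its 4 tested genes Sftpc fell (log2 -0.28, from 31.6 to 26.0 CPM) and Sftpa1 (0.12) did not pass. Foxj1 (1.20, from 3.72 to 8.50 CPM) and Ager (0.98, from 1.34 to 2.64 CPM) rose. The endothelial list summed to 528 to 582 CPM in the controls and 419 to 454 with MAX restored, nearly all from Vwf, which fell (log2 -0.37, edgeR adjusted p = 1.02e-07), with Cdh5 at 0. The part of these markers in the results was not tested. In bulk RNA, fewer cells of a kind and less RNA per cell cannot be told apart.

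With MAX restored, transcripts of 5 of the 7 enzymes and of both cofactors were lower. The falls were under 2-fold throughout. Prmt3, Wdr77 and Prmt7 fell 1.6-fold, 1.57-fold and 1.52-fold, Carm1 1.32-fold and Clns1a 1.21-fold, while Prmt1 and Prmt5 were lower by 1.11-fold and 1.10-fold. Prmt2 rose 1.21-fold, and Prmt6 did not pass the test. By edgeR's quasi-likelihood test with Benjamini-Hochberg adjustment over all genes (threshold 0.05), 7 of the 9 genes were lower and 1 was higher. Over all 12664 tested genes 32.3% were called lower and 31.2% higher, 63.5% in all, so a call alone is common here. The median log2 fold change of the 9 genes was -0.28, against -0.0036 for all tested genes (the median size of a change was 0.28 against 0.26). Without control 1 the counts were the same, 7 lower and 1 higher. They were 5 lower and 1 higher without control 2 and also without MAX restored 3, because Prmt1 and Prmt5 lost their calls.

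**Figure D1:**
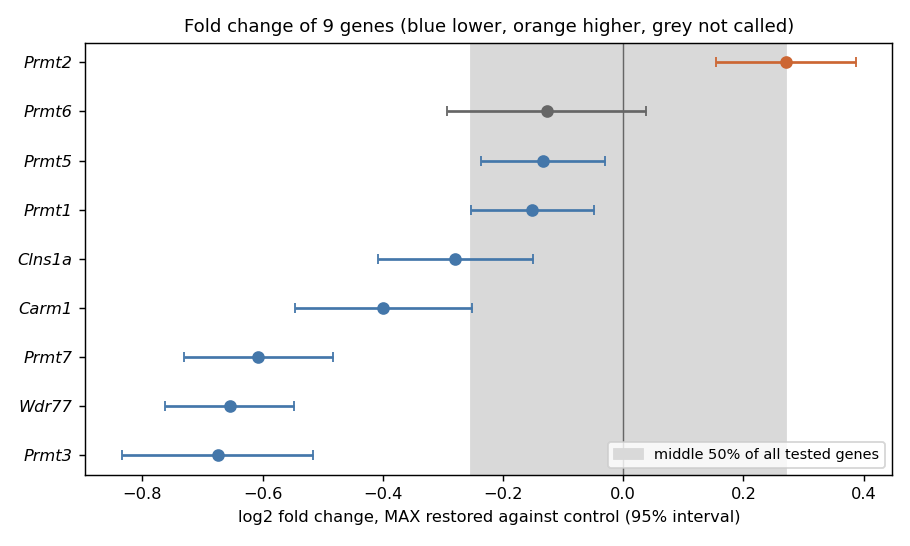
Log2 fold change of each gene, MAX restored against control (x axis), with its 95% interval from the edgeR fit. Points are 1 gene each, and the grey band spans the middle 50% of all tested genes, from -0.25 to 0.27. Prmt3, Wdr77 and Prmt7 lie farthest to the left with intervals that end below the band, and the point of Prmt2 alone lies to the right of 0.

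The values in single libraries show how far the groups were separated. CPM here denotes counts scaled to a common library size after TMM scaling. The 2 groups were separated without overlap in 8 of the 9 genes, against 67.1% of all tested genes. In 7 of the 8 the MAX restored libraries lay below the controls (33.8% of all tested genes) and in Prmt2 above them (33.2%). The exception was Prmt5, whose values overlapped.

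**Figure D2:**
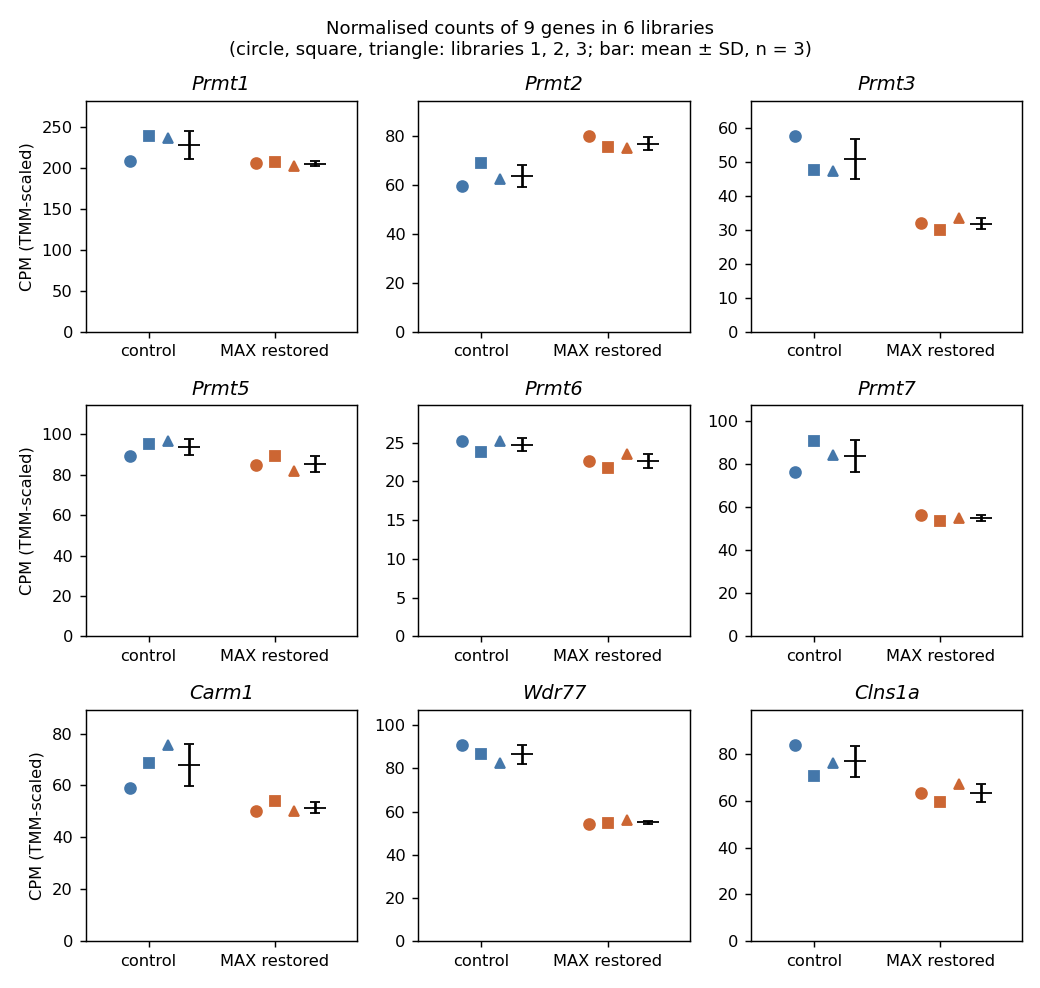
CPM of each gene in each library (y axis, linear from 0), control in blue and MAX restored in orange. The symbols mark libraries 1, 2 and 3, and the bar is the mean with its SD over 3 libraries. Prmt3, Prmt7 and Wdr77 show a wide gap between the groups, Prmt1 and Prmt6 a narrow one, and in Prmt5 the groups overlap.

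Among the type I enzymes, Prmt3 changed most. PRMT3 is a cytosolic enzyme whose known substrate is the ribosomal protein RPS2. Its CPM was 57.5, 47.6 and 47.2 in controls 1 to 3 and 31.8, 30.1 and 33.5 in MAX restored libraries 1 to 3. Every MAX restored library lay well below every control, and control 1 was the highest of all. The log2 fold change was -0.67 (SE 0.08, adjusted p = 2.24e-07 by edgeR), and without control 1 it was -0.58. Its size ranks above that of 83.5% of tested genes. In mm9 Prmt3 covers chromosome 7, plus strand, bases 57033728 to 57113635, in 16 exon blocks.

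Carm1 encodes a transcriptional coactivator that methylates histone H3 and splicing and transcription factors. Its CPM was 59.2, 68.8 and 75.6 in the controls and 50.1, 54.1 and 50.2 in the MAX restored libraries. The groups did not overlap, and control 1 lay closest to the MAX restored values. Its log2 fold change was -0.40 (SE 0.07, adjusted p = 5.79e-05 by edgeR), and -0.49 without control 1. The gene spans 21351338 to 21393909 on chromosome 9 of mm9, and 784 of its 3218 exon bases, 24.4%, are shared with Yipf2 on the other strand. Reads in that shared part cannot be given to either gene by the counting used. Yipf2 itself did not pass the test (log2 -0.07, edgeR adjusted p = 0.510).

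Prmt1, which makes most of the asymmetric dimethylarginine in mammalian cells, was the most abundant of the family and changed little. Its CPM was 209, 240 and 237 in the controls and 207, 208 and 202 in the MAX restored libraries. Controls 2 and 3 lay clearly above the MAX restored libraries, but control 1 lay just above them. On the log2 scale the change was -0.15 (SE 0.05, edgeR adjusted p = 0.0114), within the middle 50% of all tested genes. Without control 1 it was -0.21. The call was lost without control 2 (-0.12, edgeR adjusted p = 0.0658) and without MAX restored 3 (-0.13, edgeR adjusted p = 0.0639). In mm9 it covers bases 52232125 to 52241790 of chromosome 7, minus strand.

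Prmt2 was the member that rose. PRMT2 carries an SH3 domain, has weak activity of its own and acts as a coactivator of nuclear receptors. Its CPM was 59.6, 68.6 and 62.5 in the controls and 79.8, 75.4 and 74.8 in the MAX restored libraries. All MAX restored libraries lay above all controls. On the log2 scale the change was 0.27 (SE 0.06, edgeR adjusted p = 0.000288), and 0.22 without control 1. The gene covers bases 75669971 to 75700610 of chromosome 10 (mm9, minus strand), and the microRNA gene Mir678, at 0 reads in every library, covers 84 of its exon bases.

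For Prmt6, a nuclear enzyme that methylates histone H3, the change did not pass the test. Its CPM was 25.2, 23.8 and 25.3 in the controls and 22.7, 21.8 and 23.5 in the MAX restored libraries. The MAX restored values lay slightly below the controls with no overlap. The fitted log2 change was -0.13 (95% interval -0.29 to 0.04, edgeR adjusted p = 0.167; -0.12 without control 1), so a fall of the size seen in Prmt1 is within the interval. Its mm9 position is chromosome 3, bases 110049022 to 110053917, minus strand.

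In the PRMT5 complex the cofactor Wdr77 fell further than the enzyme gene. Prmt5 CPM was 89.1, 95.3 and 97.0 in the controls and 85.0, 89.5 and 81.9 in the MAX restored libraries. MAX restored 2 lay above control 1, so the groups overlapped. The fitted log2 change was -0.13 (SE 0.05, edgeR adjusted p = 0.0232), and -0.17 without control 1. This call was lost without control 2 (-0.12, adjusted p = 0.0670), control 3 (-0.11, 0.0992), MAX restored 1 (-0.12, 0.0856) or MAX restored 3 (-0.10, 0.140), all by edgeR. DESeq2 gave -0.14 with an adjusted p of 0.0812, and upper-quartile scaling -0.11 with an edgeR adjusted p of 0.0658. Its mm9 position is chromosome 14, bases 55126019 to 55136307, minus strand.

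Wdr77 encodes the WD-repeat subunit that PRMT5 needs for activity and substrate binding. Its CPM was 90.8, 86.5 and 82.3 in the controls and 54.3, 54.8 and 55.9 in the MAX restored libraries. The groups were far apart, and the MAX restored libraries lay within 2 CPM of each other. On the log2 scale Wdr77 changed by -0.66 (SE 0.05, edgeR adjusted p = 1.13e-09), and -0.62 without control 1. In mm9 Wdr77 covers bases 105762416 to 105772678 of chromosome 3, plus strand, head to head with Atp5f1, an ATP synthase subunit gene, with which it shares 205 of 3553 exon bases. Atp5f1 did not pass the test (log2 -0.14, edgeR adjusted p = 0.0536).

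Clns1a encodes the adaptor that holds Sm proteins ready for methylation. CPM values of 83.9, 70.7 and 76.4 were found in the controls and 63.5, 59.7 and 67.2 in the MAX restored libraries. The highest MAX restored library lay below the lowest control. The log2 fold change was -0.28 (SE 0.06, edgeR adjusted p = 0.000558), and -0.22 without control 1. In mm9 the gene covers chromosome 7, bases 104845167 to 104869303, plus strand.

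Since WDR77 and PRMT5 act in 1 complex, their transcripts were also set against each other per kilobase of exon. The log2 ratio of Wdr77 to Prmt5 was -0.40, -0.57 and -0.66 in controls 1 to 3 and -1.08, -1.14 and -0.98 in MAX restored libraries 1 to 3. All MAX restored libraries lay below all controls. The per-kilobase level of Wdr77 was 0.686 of that of Prmt5 in the controls and 0.479 with MAX restored, a log2 difference of -0.52. These ratios use the full exon length of Wdr77, with the 205 bases shared with Atp5f1. Leaving those bases out of the length would raise both ratios alike, so the ratios are not transcript numbers. For Clns1a to Prmt5 the log2 ratio was -0.45, -0.79 and -0.71 in the controls and -0.78, -0.95 and -0.65 in the MAX restored libraries, which overlap, with a difference of -0.14. The two-sided exact permutation test gave p = 0.10 for Wdr77, the smallest value 3 against 3 libraries allow, and p = 0.50 for Clns1a (0.20 and 0.50 adjusted over the 2 ratios). This test, with so few libraries, cannot go under 0.05 for either ratio. Without control 1 the difference was -0.45 for Wdr77 and -0.04 for Clns1a. For Clns1a it was also -0.06 without MAX restored 2, and -0.21 without control 2 or without MAX restored 3.

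**Figure D3:**
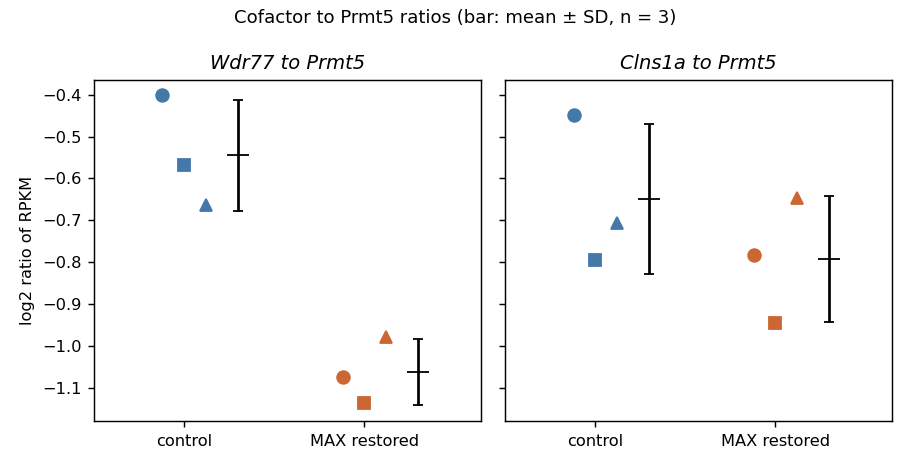
Log2 ratio of the per-kilobase level of Wdr77 (left) and Clns1a (right) to that of Prmt5 (y axis) in each library, control in blue and MAX restored in orange, with mean and SD over 3 libraries. The Wdr77 ratio lies between -0.66 and -0.40 in the controls and between -1.14 and -0.98 with MAX restored, while the Clns1a ratios overlap.

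Prmt7 fell nearly as far as Prmt3. PRMT7 differs from the rest of the family in leaving only a single methyl group on arginine. CPM was 76.3, 91.0 and 84.5 in the controls and 56.5, 53.8 and 55.0 in the MAX restored libraries. The groups were well separated, with control 1 the lowest control. Its log2 fold change was -0.61 (SE 0.06, edgeR adjusted p = 3.00e-08), and -0.67 without control 1. It covers bases 108734954 to 108775594 of chromosome 8 (mm9, plus strand), next to Slc7a6os (log2 -0.14, edgeR adjusted p = 0.0477), with which it shares no exon base. Over the 50 nearest tested genes of each of the 9 genes, the median log2 fold change lay between -0.09 and 0.08.

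Levels of different genes are compared here per length, as RPKM, the CPM per kilobase of annotated exon. Prmt1 stood alone at the top, with 151 ± 11.2 RPKM in the controls and 136 ± 1.88 with MAX restored (SD, n = 3). In the controls Prmt7 (37.2 ± 3.26) and Prmt5 (35.5 ± 1.56) followed with overlapping values, then Prmt2 (28.9 ± 2.10). Wdr77 (24.4), Clns1a (22.7), Carm1 (21.1) and Prmt3 (20.3) overlapped each with the next, and Prmt6 was lowest at 5.86 ± 0.199. With MAX restored the order changed: Prmt2 (34.9 ± 1.24) came second, then Prmt5 (32.4 ± 1.44) and Prmt7 (24.5 ± 0.615), with no overlap between these neighbours. Clns1a (18.7) lay above Carm1 (16.0) and Wdr77 (15.5), which overlapped, and Prmt3 (12.7) and Prmt6 (5.36) came last. With the bases shared with Yipf2 left out of its length, Carm1 stood at 27.9 RPKM in the controls and 21.1 with MAX restored, so its place in the order is uncertain.

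Summed over the 7 enzyme genes, the level was 281, 313 and 308 RPKM in the controls and 264, 264 and 258 in the MAX restored libraries, with no overlap. Prmt1 made up 50.4% ± 0.889 of that sum in the controls and 52.0% ± 0.197 with MAX restored (SD, n = 3). The share of Prmt2 went from 9.62% ± 0.378 to 13.3% ± 0.385 and that of Prmt7 from 12.4% ± 0.460 to 9.33% ± 0.246. Prmt3 went from 6.82% ± 1.21 to 4.87% ± 0.319, while Prmt5 held 11.8% ± 0.255 and 12.3% ± 0.441. These shares are a description and were not tested.

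**Figure D4:**
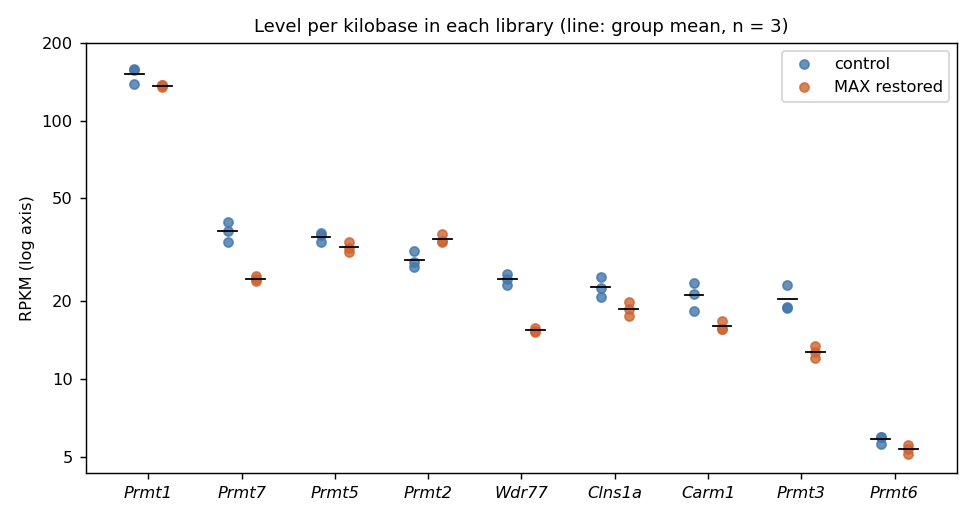
RPKM of each gene in each library (y axis, log scale), ordered by the control mean, control in blue and MAX restored in orange, with the group mean as a line. Prmt1 lies above 130 in all libraries and Prmt6 below 6, and Prmt7 and Prmt2 exchange places between the groups.

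Related genes of arginine methylation were read from 9 lists of enzymes, partners, substrates and methyl donors. Of their 126 genes 116 were tested, and 24 were higher and 55 lower (median log2 change -0.12). Over all 12664 tested genes 31.2% were higher and 32.3% lower (median -0.0036). Without control 1 there were 33 higher and 54 lower in the lists, beside 4033 higher and 4219 lower over all genes. Leaving out MAX restored 2 gave 25 higher and 45 lower in the lists (3637 and 3675 over all genes). DESeq2 gave 25 and 49 (3307 and 3513), and an edgeR adjusted p under 0.01 gave 22 and 44 (3243 and 3418). Of the other arginine methyltransferases, Prmt9, a type II enzyme listed under its older symbol Prmt10, rose (log2 0.34, SE 0.07, edgeR adjusted p = 0.00058), from 27.2 ± 0.784 to 34.3 ± 2.58 CPM (SD, n = 3). Ndufaf7 (0.19), Fbxo11 (0.06) and Mettl23 (-0.13) did not pass, and Prmt8, known from brain, had 2 reads over all libraries and was not tested.

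Partners of PRMT5 were lower in 6 of 7 (32.3% of all tested genes were), with a median of -0.32. The nucleolar protein gene Lyar had the smallest p (log2 -0.70, SE 0.07), from 56.8 ± 3.61 to 35.0 ± 3.25 CPM (SD, n = 3). Coprs, which ties PRMT5 to histones, fell by 0.36, and Riok1, which competes with CLNS1A for PRMT5 and brings it other substrates, fell by 0.31 on the log2 scale. Mtap, whose loss lets a metabolite that inhibits PRMT5 build up, fell by 0.32. Cdk4 fell by 0.29 and Prdm1 by 0.83, the latter at only 5.94 CPM in the controls, while Ccnd1 (0.28) did not pass. Partners of PRMT1 split: of 7, 2 were higher and 3 lower (31.2% and 32.3% of all tested genes were), with a median of -0.03. Tob1 (0.16) was among those that rose, and Btg2 (-0.26), Tob2 (-0.14) and Chtop (-0.12) fell.

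The list of Sm core genes and other genes tied to symmetric methylation holds the Sm core as a group, whether or not each product is methylated. Of its 11 tested genes 8 were lower, beside 32.3% of all tested genes, and the other 3 did not pass. Lsm11, of the U7 particle that processes histone transcripts, fell most (log2 -0.74, SE 0.09), and the Sm core genes Snrpe (-0.41) and Snrpd1 (-0.27) came next by p. In the list of SMN complex genes and tudor readers of methylarginine 10 of 17 were lower, beside the same 32.3%. Among them Tdrkh (-0.50), Gemin5 (-0.38) and Snd1 (-0.27) had the smallest p, and Tdrd9 (1.42, from 1.27 to 3.44 CPM) was the only 1 that rose. The medians of these lists were -0.22 and -0.21.

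A list of 30 genes was made for RGG-repeat and other proteins linked to PRMT1, and not every protein on it has RGG repeats. Of these genes 8 were higher and 11 lower, with a median of -0.05, shares near those of all tested genes (31.2% and 32.3%). The nucleolar members Gar1 (-0.84), Npm1 (-0.70) and Ncl (-0.42) fell with the smallest p. Of 17 tested substrates and partners of CARM1, 7 were higher (31.2% of all tested genes were) and 4 lower (32.3%), with a median of 0.10. The neuronal RNA-binding protein gene Elavl4 rose (0.93, SE 0.06), as did the Mediator gene Med12 (0.53), while the poly(A)-binding protein gene Pabpc1 (-0.49), Snrpc (-0.29), Nfib (-0.15) and Kmt2d (-0.13) fell.

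Genes that supply S-adenosylmethionine and clear its products were lower in 12 of 17, with a list median of -0.50, and higher in 1, beside 32.3% and 31.2% of all tested genes. Mtr, methionine synthase, fell by 0.78 on the log2 scale, and Ahcyl2 fell by 0.52. Mat1a, the liver form of methionine adenosyltransferase, rose (1.32, SE 0.09), from 13.6 ± 0.930 to 34.2 ± 2.27 CPM (SD, n = 3). The main form in other tissues, Mat2a, fell by 0.13 from 249 CPM. Amd1 was listed at 0 in every library and Ahcy had 91 reads in all, and both have near-identical copies, so their counts are uncertain, as are those of Npm1. Of 7 tested genes that oppose arginine methylation or clear free dimethylarginine, 4 were higher and 2 lower, beside the same 31.2% and 32.3%. The deiminase genes Padi2 (0.46) and Padi3 (1.28) and the clearance genes Ddah1 (1.43) and Ddah2 (0.42) rose. Jmjd6 (-0.35) and the deiminase gene Padi4 (-0.85) fell. Mean levels were low, control to MAX restored, for Padi3 (2.18 to 5.29 CPM), Ddah1 (0.849 to 2.30) and Padi4 (4.98 to 2.75).

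**Figure D5:**
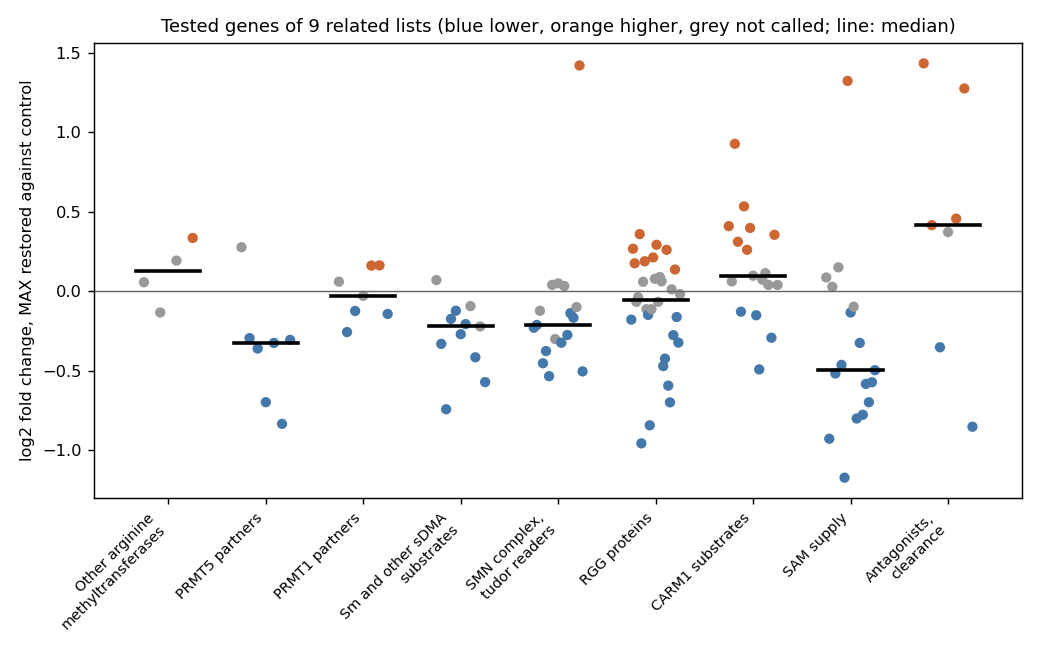
Log2 fold change, MAX restored against control (y axis), of each tested gene in 9 lists related to arginine methylation (x axis; sDMA is symmetric dimethylarginine, SAM is S-adenosylmethionine). Points are genes, coloured by call, and lines are list medians. The medians run from -0.50 for S-adenosylmethionine supply to 0.42 for antagonists and clearance.

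Genes with the most similar profile were sought for Prmt2 and Prmt3, the largest rise and the deepest fall among the 9. The measure was the mean absolute difference in log2 CPM over 6 libraries, after subtracting each gene's control mean, among non-members of like abundance. For Prmt2 the nearest of 5034 genes were Tle6 (0.014), Cdc42bpg (0.021) and Sv2a (0.022). For Prmt3 the nearest of 4891 genes were Pdcd2 (0.031), Mybl1 (0.040) and Haus6 (0.041). The 6 libraries form only 2 groups, so many genes with a change of like size lie near by this measure.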

How the data were processed

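Per the labels' protocols, RNA was purified with TRIzol and 500 ng went into each library (Ultra RNA kit). Tools named in the submitters' processing notes are STAR 2.5.2a, bcl2fastq 1.8.4 and featureCounts with Subread 1.6.0, and the build is mm9. What the authors deposited are raw read counts by gene symbol, without normalization. Per the file headers, counting was unstranded over exons of the UCSC mm9 annotation, and no option was set for reads that overlap several genes or map to several places. Antisense or overlapping genes can therefore not be told apart.

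Counts were analysed in R 4.3.3 with edgeR 4.0.16: filterByExpr (minimum count 10; all 9 genes passed, 12664 of 24391 in all), TMM scaling, quasi-likelihood test on group, two-sided, adjusted by Benjamini-Hochberg over all tested genes. The SE is the coefficient over the square root of F, and 95% intervals use the fit's degrees of freedom. Ratios used a prior count of 0.5. Alternatives used DESeq2 1.42.0, limma 3.58.1 voom, other scalings and filters, a replicate block and each library left out. Scripts were tested on simulated data. The genes and lists were chosen with earlier results of these data known. From each list up to 3 called genes with the smallest p were named, with all partners of PRMT5 and other methyltransferases. Genes named to spell out a count of 5 or fewer, and Mat2a, Amd1 and Ahcy, were chosen after their values were seen. A gene that this rule takes is not reported here.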

Additional observations from a re-analysis of the deposited data

How the results depend on the processing

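Over 14 alternatives, all 9 genes kept the sign of their change, and Prmt2, Prmt3, Prmt6, Prmt7, Carm1, Wdr77 and Clns1a also kept their side of the threshold. Prmt5 passed no longer with upper-quartile scaling (log2 -0.11) or DESeq2 (-0.14), and with libraries left out it ranged from -0.17 to -0.10 (edgeR adjusted p 0.00120 to 0.140). Prmt1 ranged from -0.21 to -0.12 with libraries left out, the largest adjusted p being 0.0658. The cause was not tested.

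With the replicate number as a block, 1 of the 9 genes was higher and 7 lower, the same counts as without it, and the block changed no other call among them. The deviations of same-numbered libraries had correlations of 0.01, 0.05 and -0.02, and those of unlike-numbered pairs ran from -0.08 to 0.07. With 3 libraries per group, this cannot show whether same-numbered libraries share more than a number. At an adjusted p under 0.01, 5 of the 9 genes were lower and 1 higher, beside 3418 lower and 3243 higher of all 12664 tested genes. The level per kilobase moved when exon bases shared with a neighbour were left out, a choice made after the data were seen: to 27.9 and 21.1 RPKM for Carm1, 25.8 and 16.4 for Wdr77, in controls and MAX restored libraries, and for Prmt2 to 36.2 with MAX restored. Prmt6 had 241 to 270 reads per library, and the part of depth in its missing call was not tested.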
